A study of Mus musculus with 16 samples.

Results

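Cytochrome P450 families 1 to 3 were followed in mouse livers that carried an adenovirus with or without FAT10 and had been given pemafibrate or its vehicle. The members were all genes whose symbol starts with Cyp1, Cyp2 or Cyp3 followed by a letter and a number, with pseudogenes left out. This rule took 60 of the 55416 genes in the count tables, in 16 subfamilies. It used no measured value, though it was chosen with earlier results of these data known. Of the 60 members, 42 passed the filter on low counts and were tested, and 18 were not tested. Counts of members below refer to the 42 tested ones unless stated otherwise.

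These enzymes are heme proteins of the endoplasmic reticulum that insert an oxygen atom into lipophilic substrates, with electrons delivered by NADPH-P450 oxidoreductase (Por) and cytochrome b5. In liver, families 1 to 3 are known for the oxidation of drugs, environmental chemicals and steroids, and some members also act on bile acids and on polyunsaturated fatty acids. Many of their genes respond to ligand-activated receptors: the Cyp1 genes to the aryl hydrocarbon receptor (Ahr), Cyp2b and Cyp2c genes to the constitutive androstane receptor (Nr1i3), and Cyp3a genes to the pregnane X receptor (Nr1i2). Several are zoned along the liver lobule, Cyp1a2 and Cyp2e1 towards the central vein and Cyp2f2 towards the portal tract. Several differ between the sexes in mice, where Cyp2a4, Cyp2b9, Cyp2b13, Cyp2c40, Cyp2c69, Cyp3a41a and Cyp3a44 are known as female-biased and Cyp2d9 as male-biased. Pemafibrate is a selective agonist of the fatty-acid receptor PPAR alpha (Ppara), and FAT10 is a ubiquitin-like modifier encoded by Ubd.

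The study had 16 livers in 4 groups of 4. All came from C57BL/6J wild-type mice aged 8 weeks that had received an adenovirus through the tail vein, and no group without an adenovirus was among them. Ad-FAT10 Pema livers received the FAT10 adenovirus and pemafibrate, and Ad-FAT10 CMC livers received the FAT10 adenovirus and the CMC vehicle. Ad-CTRL Pema livers received the control adenovirus and pemafibrate, and Ad-CTRL CMC livers received the control adenovirus and the vehicle. Gavage with pemafibrate at 1 mpk or with CMC started 4 days after the virus and was given 18 h and 5 h before the livers were taken, with food withdrawn for the last 5 h. The study asked how FAT10 bears on the response of liver to a PPAR alpha agonist, and here that question was put to the P450 genes. Each liver was a separate mouse, and the labels gave no batch.

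Polyadenylated RNA was sequenced, and the deposited values were raw read counts per Ensembl gene, from 18663498 to 28898229 counts per library. Levels are given as CPM, the usual rescaling of counts to a common library size, with TMM factors that align the bulk of genes between libraries. A count of 0 allows up to 3 counts, or 0.0889 to 0.176 CPM with the TMM factors, depending on the library. Log2 changes are from edgeR's quasi-likelihood test on all 16 libraries, given ± 1 SE, with p-values adjusted by Benjamini-Hochberg over the 14770 genes tested, and a member was called at an adjusted p under 0.05. Ubd stood at 391 to 546 CPM in Ad-FAT10 Pema livers and 110.5 to 339 CPM in Ad-FAT10 CMC livers, against 14.2 to 47.8 CPM in Ad-CTRL Pema livers and 8.64 to 15.2 CPM in Ad-CTRL CMC livers. Reads from the vector and from the mouse gene cannot be told apart in that count. Albumin and the other hepatocyte markers were abundant in every library, and all 16 libraries held transcripts of Y-linked genes with Xist at 0.176 CPM or less.

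A pair of libraries stood apart within their groups for these genes. Ad-FAT10 Pema replicate 3 was the lowest of its group for 27 of the 42 tested members and the highest for 0. Ad-FAT10 CMC replicate 4 was the highest of its group for 16 members, Cyp2a4, Cyp2a5, Cyp2b9 and Cyp3a11 among them, and the lowest for 19, Cyp1a2, Cyp2c70 and Cyp2e1 among them. Calls that were lost without one of them are given with the result. The scaling also mattered: with library totals in place of TMM, the median log2 change of all genes tested rose by 0.36 under Pema and 0.29 under CMC for Ad-FAT10 against Ad-CTRL, so these comparisons are relative to the bulk of genes. In bulk tissue, fewer cells of a type and less RNA per cell cannot be told apart.

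Several members are close copies of each other, so that reads can be shared or assigned to the wrong copy, and the sequences below show how much separates them. Cyp2a4 and Cyp2a5, a steroid hydroxylase and the coumarin hydroxylase of mouse liver, lie on chromosome 7 and differ at 23 of 1485 coding bases, with 216 bases as the longest stretch without a difference. The stretch of 60 coding bases with the most differences, bases 596 to 655 of each coding sequence in GENCODE M21 on GRCm38, is shown because a read across it tells the genes apart. Capitals mark the 4 bases that differ.
Cyp2a4: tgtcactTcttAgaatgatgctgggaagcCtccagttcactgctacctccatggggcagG
Cyp2a5: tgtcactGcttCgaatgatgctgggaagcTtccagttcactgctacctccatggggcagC
The 250 bases before the start of each gene were 98.4% identical, at 245 of 249 aligned positions, in RefSeq's promoter table on GRCm38.p6 (Cyp2a4 at chr7:26306942-26307191 and Cyp2a5 at chr7:26835089-26835338, both on the + strand). They are shown because the pair differed widely in level in these livers while their upstream letters hardly differ; capitals mark bases that differ or do not align.
Cyp2a4: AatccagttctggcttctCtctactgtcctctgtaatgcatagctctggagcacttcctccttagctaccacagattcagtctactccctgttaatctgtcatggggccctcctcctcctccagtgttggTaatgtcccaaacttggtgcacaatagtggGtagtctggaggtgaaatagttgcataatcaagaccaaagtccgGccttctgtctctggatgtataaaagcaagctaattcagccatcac
Cyp2a5: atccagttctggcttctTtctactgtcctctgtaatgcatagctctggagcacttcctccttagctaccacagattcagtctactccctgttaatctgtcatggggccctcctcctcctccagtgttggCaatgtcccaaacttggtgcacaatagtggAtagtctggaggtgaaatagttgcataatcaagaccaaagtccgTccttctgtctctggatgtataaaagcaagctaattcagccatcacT

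The same region of chromosome 7 holds a second pair, Cyp2a22 and Cyp2a12, which is shown because Cyp2a22 was the member with the clearest rise under pemafibrate and Cyp2a12 was not called with it. Their coding sequences were 96.96% identical and their 250 upstream bases 91.8% identical, at 213 of 232 aligned positions (Cyp2a22 at chr7:26939387-26939636 on the - strand and Cyp2a12 at chr7:27028840-27029089 on the + strand, GRCm38.p6). Capitals again mark bases that differ or do not align.
Cyp2a22: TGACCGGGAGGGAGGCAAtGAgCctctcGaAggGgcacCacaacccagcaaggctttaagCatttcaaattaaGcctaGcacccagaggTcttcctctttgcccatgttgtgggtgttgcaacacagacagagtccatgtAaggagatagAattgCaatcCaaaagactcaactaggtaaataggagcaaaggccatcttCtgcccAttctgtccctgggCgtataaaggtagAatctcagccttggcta
Cyp2a12: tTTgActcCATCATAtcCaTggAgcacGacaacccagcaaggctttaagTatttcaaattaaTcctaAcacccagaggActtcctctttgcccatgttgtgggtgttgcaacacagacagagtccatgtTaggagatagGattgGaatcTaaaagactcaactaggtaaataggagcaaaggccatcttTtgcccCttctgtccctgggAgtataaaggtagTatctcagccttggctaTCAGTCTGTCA
Short motifs were searched on both strands in the 250 bases before the start of the 52 members with an entry. Overlaps between motifs were allowed. The letters AGGTCA, the half-site read by many nuclear receptors, were in 15 of 52 members (28.8%), Cyp2j5, Cyp2c70, Cyp2c29 and Cyp3a11 among them, against 14% of all 32851 promoters. GCGTG, the core read by the Ahr complex, was in 8 of 52 members (15.4%), Cyp1a1 and Cyp2b10 among them, against 28.2% of all promoters. The pattern TTCNNNGAA, read by STAT factors, was in 2 of 52 members (3.85%) against 7.02% of all promoters. A member counted if any of its entries held the motif, while the share of all promoters is per entry. The shares set side by side thus differ in unit. None of the 4 windows printed above held any of the 3 motifs in the bases shown.

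Close copies also occurred in the other subfamilies. The share of a gene's 100-base transcript windows that recur in another gene was 34.4% for Cyp2c40, 35.4% for Cyp2c69, 23.7% for Cyp2c67, 19.8% for Cyp2c68, 11.2% for Cyp2a4, 12.1% for Cyp2a5, 12.2% for Cyp2d11 and 11.7% for Cyp2d10. It was 90.8% for Cyp3a41a and 88.2% for Cyp3a41b, whose coding sequences differ at 2 of 1515 bases and which had no count in any library. Values of these genes are uncertain, since how the authors' counting treated reads that fit several genes is not given in the sources used here. With 50-base windows more was shared: 36.1% for Cyp2a4 with Cyp2a5 and 46.5% for Cyp2c69 with Cyp2c40. It was 26.9% for Cyp2d11 with Cyp2d10 and 26.8% for Cyp3a59 with Cyp3a25. These shares do not bound the error of a low copy beside an abundant one.

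The members covered a wide range of levels per kb of exon. Cyp2e1, the ethanol- and paracetamol-oxidising enzyme, led with a mean of 2090 CPM per kb over the 16 livers. Cyp3a11, the main Cyp3a enzyme of mouse liver, followed at 472 CPM per kb, and Cyp2d9 (378), Cyp2d26 (374), Cyp2a5 (335), Cyp2d10 (290.1), Cyp2f2 (279.5), Cyp3a25 (251), Cyp2j5 (219) and Cyp2c29 (183.5) came next. Cyp2d11 (0.161), Cyp2s1 (0.152), Cyp1b1 (0.124) and Cyp2d12 (0.0909) were the lowest of the tested members. Counts per library were 1 to 11 for Cyp2d11, 5 to 33 for Cyp2s1, 8 to 39 for Cyp1b1 and 0 to 18 for Cyp2d12. Of the 18 members not tested, 10 had no count in any library: Cyp2b19, Cyp2c66, Cyp2j7, Cyp2j11, Cyp2j12, Cyp2j13, Cyp2w1, Cyp3a16, Cyp3a41a and Cyp3a41b. The other 8 had at most 9 counts in a library, with 60 counts in all for Cyp2t4, 31 for Cyp3a44, 24 for Cyp2j8 and 8 or fewer for Cyp2b13, Cyp2b23, Cyp2c65, Cyp2d34 and Cyp3a57. Members together took 1.22% ± 0.155 of all counts in Ad-FAT10 Pema livers, 1.48% ± 0.0862 in Ad-FAT10 CMC livers, 1.29% ± 0.0833 in Ad-CTRL Pema livers and 1.83% ± 0.103 in Ad-CTRL CMC livers (SD, n = 4 each).

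**Figure D1:**
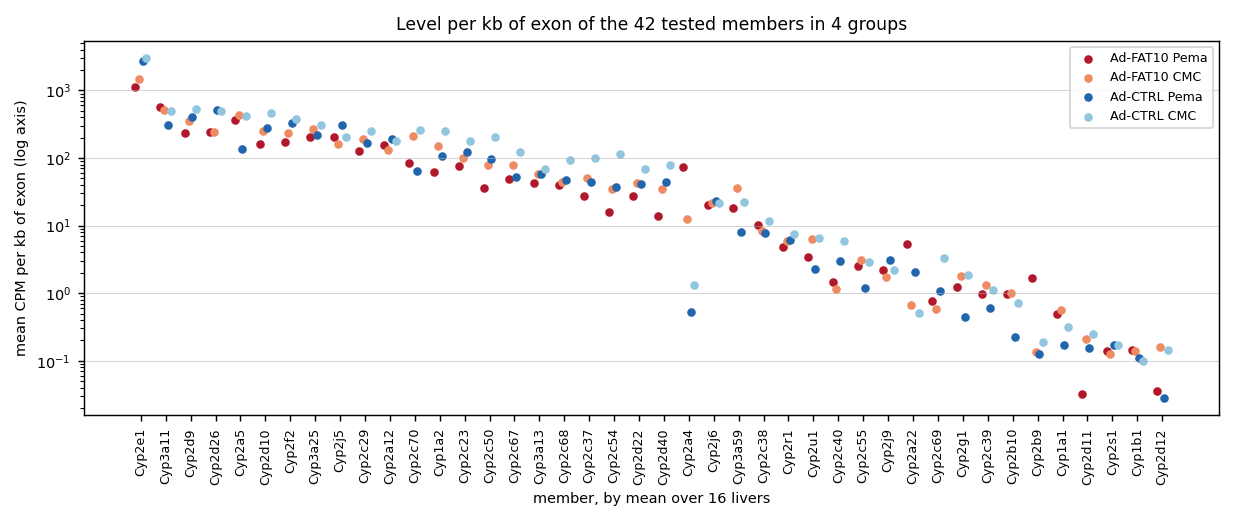
Mean CPM per kb of exon of the 42 tested members (log axis), ordered by the mean over the 16 livers, with 1 symbol per group. Cyp2e1 stands highest at 2090 CPM per kb and Cyp2d12 lowest at 0.0909 CPM per kb, and Cyp2a4 and Cyp2b9 show the widest gaps between groups.

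With pemafibrate, more members were lower than higher under either adenovirus. In Ad-FAT10 livers, 4 members were higher and 16 lower with pemafibrate, where 12.9% of all genes tested were called higher and 12.5% lower, and the members' median log2 change was -0.36 against -0.01 for all genes. In Ad-CTRL livers, 2 members were higher and 22 lower, where 16.2% of all genes tested were called higher and 14.4% lower, and the median was -0.74 against -0.01. The share called lower was thus 38.1% of the tested members in Ad-FAT10 livers and 52.4% in Ad-CTRL livers, above the background in each, and the share called higher was 9.52% in Ad-FAT10 livers and 4.76% in Ad-CTRL livers, below it. The comparisons under the 2 adenoviruses share no library: 13 members were lower in both, which is 13 of the 16 called in Ad-FAT10 livers and 13 of the 22 called in Ad-CTRL livers. The share of all genes called lower in both is not given here, so this overlap has no background beside it. Cyp2a22 and Cyp2j5 were higher in both, and no member had opposite calls. Scaling by library totals gave 3 higher and 16 lower in Ad-FAT10 livers and 2 higher and 24 lower in Ad-CTRL livers. All genes went to 1684 higher and 1904 lower in Ad-FAT10 livers (1898 and 1852 with TMM) under that scaling. In Ad-CTRL livers they went to 1782 higher and 2729 lower (2389 and 2134 with TMM), so more genes of any kind were called lower there.

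With FAT10, members moved in both directions. Under Pema, 10 members were higher and 15 lower in Ad-FAT10 than in Ad-CTRL livers, where 21.2% of all genes tested were called higher and 20.5% lower, and the median log2 change was -0.31 against -0.02 for all genes. Under CMC, 2 members were higher and 18 lower, where 22.5% of all genes tested were called higher and 20.2% lower, and the median was -0.36 against -0.01. Higher calls were 23.8% of the members under Pema, near the background, and 4.76% under CMC, below it. Lower calls were 35.7% under Pema and 42.9% under CMC, both above it. Lower in both were 13 members, which is 13 of 15 under Pema and 13 of 18 under CMC, and Cyp2a4 and Cyp3a59 were higher in both. For this overlap too, the share of all genes called in both is not given. Library totals moved these splits to 13 higher and 11 lower under Pema and to 3 higher and 13 lower under CMC, while all genes went to 7195 higher and 826 lower under Pema (3136 and 3024 with TMM) and to 6364 higher and 1061 lower under CMC (3316 and 2977 with TMM).

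**Figure D2:**
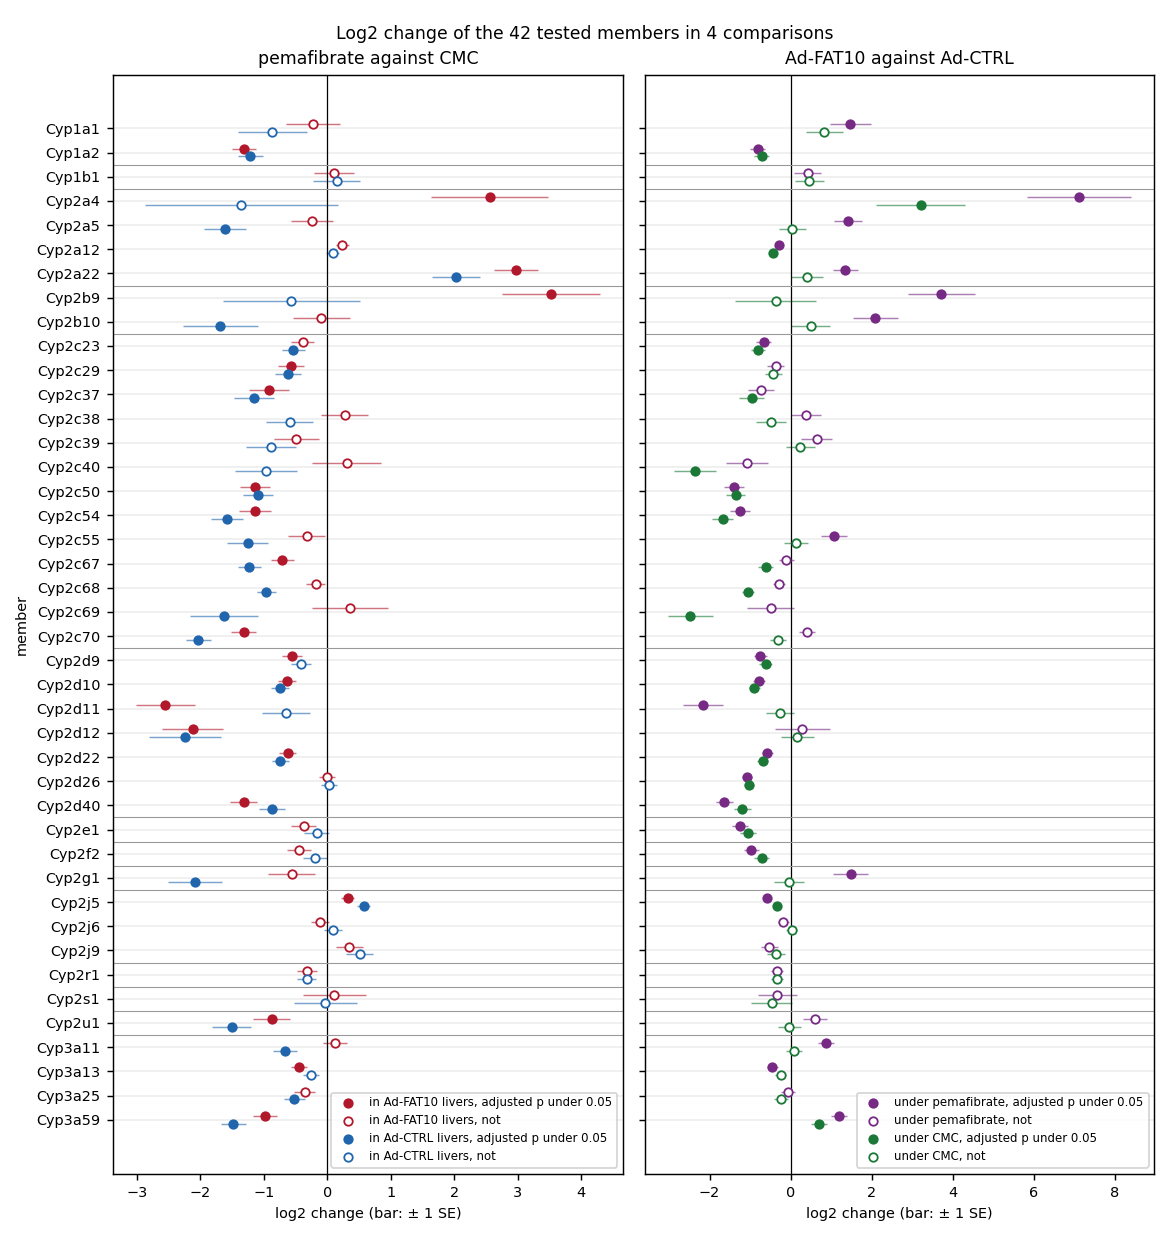
Log2 change of the 42 tested members with pemafibrate (Ad-FAT10 and Ad-CTRL livers) and with FAT10 (under Pema and under CMC), bars ± 1 SE. With pemafibrate 16 members in Ad-FAT10 and 22 in Ad-CTRL livers were called lower, and Cyp2a22 and Cyp2j5 were called higher in both.

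The test of whether pemafibrate acted differently under the 2 adenoviruses called none of the members. By edgeR 0 members were called higher and 0 lower in the interaction, where 0.0271% of all genes tested were called higher and 0.129% lower. An unadjusted p under 0.05 was found for 11 members, and the share of all genes at that level is not given here. DESeq2 called 1 member, Cyp2c68, where 36 of all 29478 genes were called higher and 80 lower. Without the filter on low counts edgeR called 3, Cyp2a5, Cyp2b9 and Cyp2c68, where 28 of all 29478 genes were called higher and 65 lower. Cyp2c68 had an interaction of 0.78 ± 0.21 (adjusted p = 0.179), and without Ad-FAT10 Pema replicate 3 it was 0.94 (adjusted p = 0.0122). Cyp2a4 had 3.91 ± 1.74 (adjusted p = 0.429), and 7.08 (adjusted p = 0.0151) without Ad-FAT10 CMC replicate 4. A member called under one adenovirus or one treatment and not under the other is therefore not shown to differ between them, outside those alternatives.

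In the Cyp1 genes, the liver enzyme of aromatic amine and caffeine oxidation, Cyp1a2, fell in all 4 comparisons, while Cyp1a1 and Cyp1b1, which are low in unexposed liver, stayed at a few CPM or less. Cyp1a2 stood at 109.8, 165, 75.7 and 145 CPM in Ad-FAT10 Pema livers, 365, 315, 282 and 265 CPM in Ad-FAT10 CMC livers, 177, 246, 226 and 218 CPM in Ad-CTRL Pema livers and 615, 468, 419.9 and 506 CPM in Ad-CTRL CMC livers. The 4 groups formed steps: every Pema liver lay below every CMC liver of the same adenovirus, and every Ad-FAT10 liver below every Ad-CTRL liver of the same treatment. The Cyp1a2 log2 change with pemafibrate was -1.31 ± 0.19 in Ad-FAT10 livers (adjusted p = 6.87e-05) and -1.21 ± 0.19 in Ad-CTRL livers (adjusted p = 9.7e-05). For Cyp1a2, the log2 change of Ad-FAT10 against Ad-CTRL livers was -0.81 ± 0.19 under Pema (adjusted p = 0.00247) and -0.71 ± 0.19 under CMC (adjusted p = 0.00598). With library totals the Cyp1a2 change was -0.45 (adjusted p = 0.0367) under Pema and -0.42 (adjusted p = 0.0492) under CMC. Cyp1a1 had 0.811, 2.59, 0.712 and 1.30 CPM in Ad-FAT10 Pema livers, 0.642, 0.918, 2.13 and 2.51 CPM in Ad-FAT10 CMC livers, 0.415, 0.1603, 0.798 and 0.529 CPM in Ad-CTRL Pema livers and 0.880, 0.831, 0.786 and 1.03 CPM in Ad-CTRL CMC livers. Its Ad-FAT10 and Ad-CTRL livers overlapped under either treatment, by a narrow margin under Pema. It was called in 1 comparison, higher with FAT10 under Pema, at a log2 change of 1.47 ± 0.50 (adjusted p = 0.0259). The Cyp1a1 call for Ad-FAT10 under Pema was lost without any 1 of Ad-FAT10 Pema replicate 2 or Ad-CTRL Pema replicates 1, 2 or 4 (adjusted p 0.0502 to 0.128). Without Ad-FAT10 Pema replicate 2 the Cyp1a1 change was 0.96 (adjusted p = 0.128). Cyp1b1 was at 0.463, 0.801, 0.890 and 1.27 CPM in Ad-FAT10 Pema livers, 1.05, 0.612, 1.12 and 0.446 CPM in Ad-FAT10 CMC livers, 0.830, 0.427, 0.549 and 0.749 CPM in Ad-CTRL Pema livers and 0.704, 0.601, 0.508 and 0.514 CPM in Ad-CTRL CMC livers. All 4 groups of Cyp1b1 overlapped, and it was called in none of the comparisons.

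The Cyp2a genes split into an abundant pair, Cyp2a5 and Cyp2a12, and a pair that was low in control livers, Cyp2a4 and Cyp2a22. Cyp2a5 was at 350.3, 1496, 613 and 544 CPM in Ad-FAT10 Pema livers, 678, 624, 981 and 1266 CPM in Ad-FAT10 CMC livers, 314, 350.5, 200.4 and 259 CPM in Ad-CTRL Pema livers and 767, 810.5, 834 and 1021 CPM in Ad-CTRL CMC livers. Cyp2a5 was lowest in Ad-CTRL Pema livers, where none reached any Ad-CTRL CMC liver but the highest matched the lowest Ad-FAT10 Pema liver, and widest spread in Ad-FAT10 Pema livers, where replicate 2 stood above all other libraries. The Cyp2a5 log2 change with pemafibrate was -0.24 ± 0.33 in Ad-FAT10 livers (adjusted p = 0.66) and -1.61 ± 0.34 in Ad-CTRL livers (adjusted p = 0.00125). For Cyp2a5, the log2 change of Ad-FAT10 against Ad-CTRL livers was 1.42 ± 0.33 under Pema (adjusted p = 0.00258) and 0.05 ± 0.33 under CMC (adjusted p = 0.918). Without Ad-FAT10 Pema replicate 2 the Cyp2a5 change with pemafibrate in Ad-FAT10 livers was -0.82 (adjusted p = 0.0256), which is a call, and the change with FAT10 under Pema was 0.84 (adjusted p = 0.0121). Cyp2a12 was at 606, 516, 491 and 529 CPM in Ad-FAT10 Pema livers, 498, 460.1, 451 and 407 CPM in Ad-FAT10 CMC livers, 573, 697, 694 and 639.7 CPM in Ad-CTRL Pema livers and 644, 549.6, 628 and 626 CPM in Ad-CTRL CMC livers. Cyp2a12 was lower with FAT10 by a small margin, in a direction that turned under Pema with library totals, and was not called with pemafibrate. For Cyp2a12, the log2 change of Ad-FAT10 against Ad-CTRL livers was -0.28 ± 0.10 under Pema (adjusted p = 0.035) and -0.43 ± 0.10 under CMC (adjusted p = 0.00283). The Cyp2a12 call for Ad-FAT10 under Pema was lost without any 1 of Ad-FAT10 Pema replicates 2, 3 or 4 or Ad-CTRL Pema replicates 2, 3 or 4 (adjusted p 0.0604 to 0.0984), and under scaling by library totals only (log2 change 0.08, adjusted p = 0.436) and under no filter on low counts (log2 change -0.25, adjusted p = 0.171) and under a fit of only the 8 libraries compared (log2 change -0.27, adjusted p = 0.0613). The Cyp2a12 call for Ad-FAT10 under CMC was lost under scaling by library totals only (log2 change -0.14, adjusted p = 0.185).

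Cyp2a4 was the member with the largest fitted change. Cyp2a4 was at 101, 189.5, 166 and 59.8 CPM in Ad-FAT10 Pema livers, 0.826, 0.956, 5.27 and 79.7 CPM in Ad-FAT10 CMC livers, 0.519, 0.534, 2.34 and 0.308 CPM in Ad-CTRL Pema livers and 0.293, 0.601, 3.37 and 5.04 CPM in Ad-CTRL CMC livers. All 4 Ad-FAT10 Pema livers lay at 59.8 CPM or above, against 2.34 CPM or less in Ad-CTRL Pema livers, while among Ad-FAT10 CMC livers replicate 4 reached the Ad-FAT10 Pema range and the other three did not. The Cyp2a4 log2 change with pemafibrate was 2.56 ± 0.92 in Ad-FAT10 livers (adjusted p = 0.0494) and -1.35 ± 1.52 in Ad-CTRL livers (adjusted p = 0.557). For Cyp2a4, the log2 change of Ad-FAT10 against Ad-CTRL livers was 7.12 ± 1.28 under Pema (adjusted p = 0.000308) and 3.22 ± 1.10 under CMC (adjusted p = 0.0254). The Cyp2a4 call with pemafibrate in Ad-FAT10 livers was lost without any 1 of Ad-FAT10 Pema replicates 1, 2, 3 or 4, Ad-FAT10 CMC replicates 1, 2 or 3, Ad-CTRL Pema replicates 1, 2, 3 or 4 or Ad-CTRL CMC replicates 1, 2, 3 or 4 (adjusted p 0.0502 to 0.121), and under DESeq2 (log2 change 2.58, adjusted p = 0.105) and under scaling by library totals only (log2 change 2.49, adjusted p = 0.0613) and under a fit of only the 8 libraries compared (log2 change 2.60, adjusted p = 0.133). The Cyp2a4 call for Ad-FAT10 under CMC was lost without any 1 of Ad-FAT10 CMC replicate 4 or Ad-CTRL CMC replicates 1 or 2 (adjusted p 0.0648 to 0.97), and under a fit of only the 8 libraries compared (log2 change 3.22, adjusted p = 0.0606). Ad-FAT10 CMC replicate 4 bears on both: without it the Cyp2a4 change with pemafibrate in Ad-FAT10 livers was 5.73 (adjusted p = 2.24e-05), and the change with FAT10 under CMC was 0.045 (adjusted p = 0.97). The call of Cyp2a4 under Pema was kept in every alternative. Set beside its close copy Cyp2a5, in Ad-FAT10 Pema livers the genes were at 101 and 350.3 CPM, 189.5 and 1496 CPM, 166 and 613 CPM, and 59.8 and 544 CPM (Cyp2a4 first), and in Ad-CTRL CMC livers at 0.293 to 5.04 CPM and 767 to 1021 CPM. The ratio of the genes differed widely between these groups. Within groups both ran together in part. They were highest in the same liver in the Ad-FAT10 Pema (replicate 2), Ad-FAT10 CMC (replicate 4) and Ad-CTRL CMC (replicate 4) livers, but not in the Ad-CTRL Pema livers, where replicate 3 was highest for Cyp2a4 and lowest for Cyp2a5. The part of shared reads in the Cyp2a4 values was not tested.

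Cyp2a22 was at 16.6, 18.8, 17.1 and 19.9 CPM in Ad-FAT10 Pema livers, 1.38, 1.26, 2.06 and 4.36 CPM in Ad-FAT10 CMC livers, 6.74, 7.80, 7.73 and 6.12 CPM in Ad-CTRL Pema livers and 0.880, 0.693, 2.03 and 3.29 CPM in Ad-CTRL CMC livers. Every Pema liver lay above every CMC liver of the same adenovirus, and the Ad-FAT10 Pema livers lay above all others. The Cyp2a22 log2 change with pemafibrate was 2.98 ± 0.35 in Ad-FAT10 livers (adjusted p = 5.54e-06) and 2.03 ± 0.38 in Ad-CTRL livers (adjusted p = 0.000434). For Cyp2a22, the log2 change of Ad-FAT10 against Ad-CTRL livers was 1.35 ± 0.32 under Pema (adjusted p = 0.00253) and 0.41 ± 0.40 under CMC (adjusted p = 0.423). Cyp2a22 was the largest rise among members with pemafibrate in Ad-CTRL livers. The sum over the 4 Cyp2a genes was 1434 ± 532 CPM in Ad-FAT10 Pema livers, 1365 ± 301 CPM in Ad-FAT10 CMC livers, 940.0 ± 77.3 CPM in Ad-CTRL Pema livers and 1474 ± 128 CPM in Ad-CTRL CMC livers (SD, n = 4 each). Its ratio of Ad-FAT10 to Ad-CTRL under CMC had a log2 value of -0.11, and with library totals of 0.19, so its direction depends on the scaling. The log2 ratio of the Cyp2a sums with FAT10 under Pema was 0.61, and 0.32 without Ad-FAT10 Pema replicate 2. With pemafibrate in Ad-FAT10 livers it was 0.07, and -0.22 to 0.22 when 1 library was left out.

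**Figure D3:**
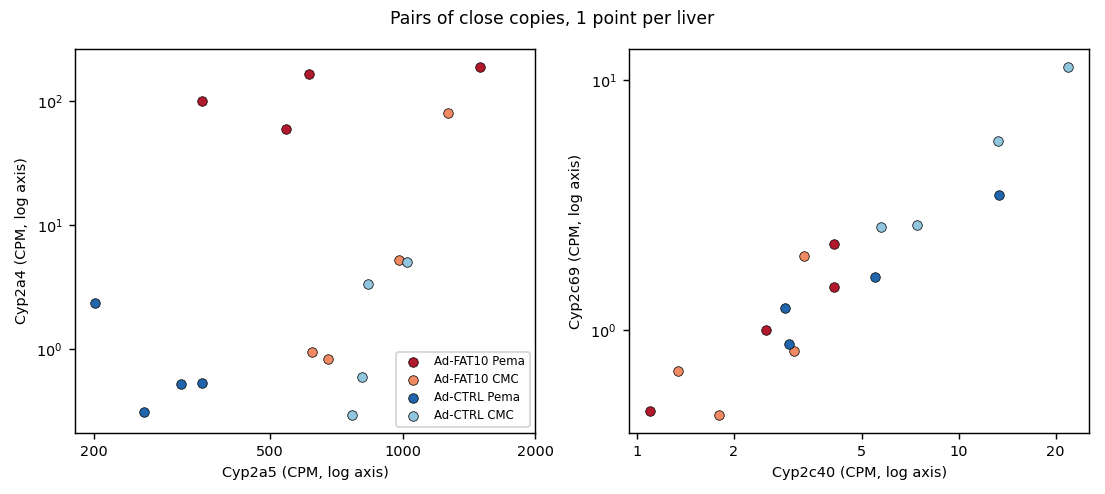
Each point is 1 liver: Cyp2a4 (vertical) against Cyp2a5 (horizontal), and Cyp2c69 (vertical) against Cyp2c40 (horizontal), in CPM on log axes, coloured by group. Cyp2a4 spans 0.293 to 189.5 CPM while Cyp2a5 spans 200.4 to 1496 CPM, and Cyp2c40 and Cyp2c69 are highest in Ad-CTRL CMC replicate 3, at 21.9 and 11.3 CPM.

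The Cyp2b genes, the classic targets of the constitutive androstane receptor, were low: 2 of 5 were tested, and both stood higher in Ad-FAT10 Pema than in Ad-CTRL Pema livers. Cyp2b9 had 2.93, 3.05, 1.66 and 5.01 CPM in Ad-FAT10 Pema livers, 0.0917, 0.0382, 0.0361 and 0.858 CPM in Ad-FAT10 CMC livers, 0.0519, 0.1603, 0.698 and 0.0441 CPM in Ad-CTRL Pema livers and 0, 0.0462, 0.277 and 1.08 CPM in Ad-CTRL CMC livers. All 4 Ad-FAT10 Pema livers exceeded every liver of the other groups, in most of which Cyp2b9 was at or below the level that a count of 0 allows. The Cyp2b9 log2 change with pemafibrate was 3.52 ± 0.77 in Ad-FAT10 livers (adjusted p = 0.00235) and -0.56 ± 1.08 in Ad-CTRL livers (adjusted p = 0.753). Without Ad-FAT10 CMC replicate 4, the Cyp2b9 change with pemafibrate in Ad-FAT10 livers was 5.76 (adjusted p = 0.000295). For Cyp2b9, the log2 change of Ad-FAT10 against Ad-CTRL livers was 3.71 ± 0.83 under Pema (adjusted p = 0.0017) and -0.37 ± 1.00 under CMC (adjusted p = 0.787). Cyp2b10 was at 1.43, 2.02, 2.29 and 2.37 CPM in Ad-FAT10 Pema livers, 0.413, 1.80, 1.16 and 5.15 CPM in Ad-FAT10 CMC livers, 0.519, 0.427, 0.748 and 0.220 CPM in Ad-CTRL Pema livers and 1.64, 1.85, 1.16 and 1.49 CPM in Ad-CTRL CMC livers. Cyp2b10 was lowest in Ad-CTRL Pema livers, below all Ad-FAT10 Pema and all Ad-CTRL CMC livers. The Cyp2b10 log2 change with pemafibrate was -0.09 ± 0.45 in Ad-FAT10 livers (adjusted p = 0.914) and -1.68 ± 0.59 in Ad-CTRL livers (adjusted p = 0.0366). For Cyp2b10, the log2 change of Ad-FAT10 against Ad-CTRL livers was 2.09 ± 0.56 under Pema (adjusted p = 0.00614) and 0.50 ± 0.48 under CMC (adjusted p = 0.417). The Cyp2b10 call with pemafibrate in Ad-CTRL livers was lost without any 1 of Ad-CTRL Pema replicates 1, 2 or 4 or Ad-CTRL CMC replicates 1, 2 or 4 (adjusted p 0.0623 to 0.108). Cyp2g1, a gene next to the Cyp2b cluster on chromosome 7 and known from olfactory tissue, had the same calls as Cyp2b10. Cyp2g1 was at 1.58, 4.46, 2.94 and 1.43 CPM in Ad-FAT10 Pema livers, 2.57, 3.17, 4.62 and 4.91 CPM in Ad-FAT10 CMC livers, 0.674, 1.71, 0.748 and 0.617 CPM in Ad-CTRL Pema livers and 2.58, 2.54, 4.71 and 5.92 CPM in Ad-CTRL CMC livers. It was lowest in Ad-CTRL Pema livers, with replicate 2 above the other three. The Cyp2g1 log2 change with pemafibrate was -0.56 ± 0.36 in Ad-FAT10 livers (adjusted p = 0.293) and -2.09 ± 0.42 in Ad-CTRL livers (adjusted p = 0.00101). For Cyp2g1, the log2 change of Ad-FAT10 against Ad-CTRL livers was 1.48 ± 0.43 under Pema (adjusted p = 0.00969) and -0.04 ± 0.36 under CMC (adjusted p = 0.938).

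The Cyp2c genes, which include arachidonic acid epoxygenases and the enzyme of muricholic acid synthesis, made the largest subfamily, with 13 of 15 members tested. With pemafibrate 0 rose and 6 fell in Ad-FAT10 livers, and 0 rose and 10 fell in Ad-CTRL livers. With FAT10, 1 rose and 3 fell under Pema, and 0 rose and 8 fell under CMC. Of all genes tested, 12.9% were called higher and 12.5% lower with pemafibrate in Ad-FAT10 livers, and 16.2% and 14.4% in Ad-CTRL livers. With FAT10 these shares were 21.2% and 20.5% under Pema, and 22.5% and 20.2% under CMC. The share of Cyp2c members called lower with FAT10 under Pema was near that background. The summed Cyp2c level was 1098 ± 248 CPM in Ad-FAT10 Pema livers, 1850.0 ± 161 CPM in Ad-FAT10 CMC livers, 1527 ± 293 CPM in Ad-CTRL Pema livers and 3077 ± 176 CPM in Ad-CTRL CMC livers (SD, n = 4 each). The Ad-FAT10 to Ad-CTRL ratio of these sums under Pema had a log2 value of -0.48, and -0.11 with library totals.

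Cyp2c70, which makes muricholic acids from chenodeoxycholic acid in mice, had the most significant fall with pemafibrate among the members. Cyp2c70 was at 229, 152, 115 and 175 CPM in Ad-FAT10 Pema livers, 496, 473, 371 and 334 CPM in Ad-FAT10 CMC livers, 110.4, 141, 128 and 128 CPM in Ad-CTRL Pema livers and 695, 457, 459.7 and 462 CPM in Ad-CTRL CMC livers. The Pema and CMC livers did not overlap under either adenovirus, and Ad-CTRL CMC replicate 1 stood above its group. The Cyp2c70 log2 change with pemafibrate was -1.32 ± 0.19 in Ad-FAT10 livers (adjusted p = 6.1e-05) and -2.03 ± 0.20 in Ad-CTRL livers (adjusted p = 3.37e-07). For Cyp2c70, the log2 change of Ad-FAT10 against Ad-CTRL livers was 0.40 ± 0.19 under Pema (adjusted p = 0.0952) and -0.31 ± 0.19 under CMC (adjusted p = 0.194). Under Pema the FAT10 comparison of Cyp2c70 missed the threshold, and it was 0.55 (adjusted p = 0.0221) without Ad-FAT10 Pema replicate 3 and 0.76 (adjusted p = 0.00103) with library totals. Cyp2c54 was at 28.2, 31.3, 13.4 and 41.1 CPM in Ad-FAT10 Pema livers, 78.7, 58.8, 68.8 and 45.4 CPM in Ad-FAT10 CMC livers, 64.9, 94.8, 61.4 and 49.0 CPM in Ad-CTRL Pema livers and 184, 213, 218 and 191 CPM in Ad-CTRL CMC livers. Cyp2c50 was at 102, 127, 51.3 and 142 CPM in Ad-FAT10 Pema livers, 315, 222, 227 and 165 CPM in Ad-FAT10 CMC livers, 276, 356, 244 and 239.8 CPM in Ad-CTRL Pema livers and 621, 572, 584 and 592 CPM in Ad-CTRL CMC livers. Both epoxygenase genes, whose coding sequences are 95.25% identical, were highest in every Ad-CTRL CMC liver and lowest in Ad-FAT10 Pema livers, with no overlap in any of the 4 comparisons. The Cyp2c54 log2 change with pemafibrate was -1.14 ± 0.25 in Ad-FAT10 livers (adjusted p = 0.00264) and -1.58 ± 0.25 in Ad-CTRL livers (adjusted p = 0.000115). For Cyp2c54, the log2 change of Ad-FAT10 against Ad-CTRL livers was -1.24 ± 0.25 under Pema (adjusted p = 0.000878) and -1.68 ± 0.25 under CMC (adjusted p = 6.34e-05). The Cyp2c50 log2 change with pemafibrate was -1.13 ± 0.24 in Ad-FAT10 livers (adjusted p = 0.00171) and -1.08 ± 0.24 in Ad-CTRL livers (adjusted p = 0.00182). For Cyp2c50, the log2 change of Ad-FAT10 against Ad-CTRL livers was -1.40 ± 0.24 under Pema (adjusted p = 0.000199) and -1.35 ± 0.24 under CMC (adjusted p = 0.000254).

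Cyp2c29 was at 359.6, 378, 287 and 535 CPM in Ad-FAT10 Pema livers, 589, 416, 632 and 674 CPM in Ad-FAT10 CMC livers, 438, 677, 493 and 407 CPM in Ad-CTRL Pema livers and 664, 832, 637 and 970.1 CPM in Ad-CTRL CMC livers. Cyp2c29, the most abundant Cyp2c gene per kb, overlapped between Pema and CMC livers under either adenovirus. The Cyp2c29 log2 change with pemafibrate was -0.57 ± 0.20 in Ad-FAT10 livers (adjusted p = 0.0482) and -0.62 ± 0.20 in Ad-CTRL livers (adjusted p = 0.0257). The Cyp2c29 call with pemafibrate in Ad-FAT10 livers was lost without any 1 of Ad-FAT10 Pema replicates 1, 2 or 3, Ad-FAT10 CMC replicates 1, 3 or 4, Ad-CTRL Pema replicates 1, 3 or 4 or Ad-CTRL CMC replicates 1, 2 or 3 (adjusted p 0.0503 to 0.129), and under a fit of only the 8 libraries compared (log2 change -0.54, adjusted p = 0.0767). The Cyp2c29 call with pemafibrate in Ad-CTRL livers was lost without any 1 of Ad-CTRL Pema replicates 1, 3 or 4 or Ad-CTRL CMC replicates 2 or 4 (adjusted p 0.0588 to 0.0972). For FAT10 it was not called, at a log2 change of -0.37 ± 0.20 (adjusted p = 0.154) under Pema and -0.42 ± 0.20 (adjusted p = 0.1) under CMC. Without Ad-FAT10 Pema replicate 4 the Cyp2c29 change under Pema was -0.56 (adjusted p = 0.0371). Cyp2c37 was lower with pemafibrate under both adenoviruses, with log2 changes of -0.92 ± 0.32 (adjusted p = 0.0393) in Ad-FAT10 and -1.16 ± 0.32 (adjusted p = 0.00925) in Ad-CTRL livers, and lower with FAT10 under CMC, at -0.96 ± 0.31 (adjusted p = 0.0199). The Cyp2c37 call with pemafibrate in Ad-FAT10 livers was lost without any 1 of Ad-FAT10 Pema replicate 2 or Ad-FAT10 CMC replicates 1, 3 or 4 (adjusted p 0.0601 to 0.0962), and under DESeq2 (log2 change -0.93, adjusted p = 0.0521) and under a fit of only the 8 libraries compared (log2 change -0.90, adjusted p = 0.0978). The Cyp2c37 call for Ad-FAT10 under CMC was lost without any 1 of Ad-FAT10 CMC replicate 2 or Ad-CTRL CMC replicate 2 (adjusted p 0.0509 to 0.0813), and under scaling by library totals only (log2 change -0.66, adjusted p = 0.0852). Cyp2c23 had log2 changes of -0.53 ± 0.18 (adjusted p = 0.0273) with pemafibrate in Ad-CTRL livers and of -0.67 ± 0.18 (adjusted p = 0.00553) and -0.81 ± 0.18 (adjusted p = 0.00142) with FAT10 under Pema and under CMC. The Cyp2c23 call with pemafibrate in Ad-CTRL livers was lost without any 1 of Ad-CTRL Pema replicates 1 or 4 or Ad-CTRL CMC replicates 3 or 4 (adjusted p 0.0548 to 0.114), and under a fit of only the 8 libraries compared (log2 change -0.54, adjusted p = 0.0539). The Cyp2c23 call for Ad-FAT10 under Pema was lost under scaling by library totals only (log2 change -0.29, adjusted p = 0.146). With library totals the Cyp2c23 change under CMC was -0.52 (adjusted p = 0.0139).

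A group of close Cyp2c copies on chromosome 19, Cyp2c40, Cyp2c67, Cyp2c68 and Cyp2c69, was lower with FAT10 under CMC. Cyp2c68 had 74.4, 70.8, 44.1 and 81.3 CPM in Ad-FAT10 Pema livers, 76.7, 67.6, 77.1 and 85.3 CPM in Ad-FAT10 CMC livers, 75.4, 87.5, 95.0 and 71.7 CPM in Ad-CTRL Pema livers and 146, 179.6, 160.0 and 154 CPM in Ad-CTRL CMC livers. The Ad-CTRL CMC livers stood alone above the other 3 groups, which overlapped. The Cyp2c68 log2 change with pemafibrate was -0.18 ± 0.15 in Ad-FAT10 livers (adjusted p = 0.417) and -0.96 ± 0.15 in Ad-CTRL livers (adjusted p = 7.69e-05). For Cyp2c68, the log2 change of Ad-FAT10 against Ad-CTRL livers was -0.28 ± 0.15 under Pema (adjusted p = 0.13) and -1.06 ± 0.15 under CMC (adjusted p = 2.93e-05). Cyp2c67 was at 106, 88.9, 49.8 and 89.9 CPM in Ad-FAT10 Pema livers, 163, 138, 141 and 106 CPM in Ad-FAT10 CMC livers, 74.8, 105, 88.7 and 90.4 CPM in Ad-CTRL Pema livers and 199, 254, 198 and 188 CPM in Ad-CTRL CMC livers. Its Ad-CTRL CMC livers were again the highest. The Cyp2c67 log2 change with pemafibrate was -0.71 ± 0.18 in Ad-FAT10 livers (adjusted p = 0.00756) and -1.22 ± 0.18 in Ad-CTRL livers (adjusted p = 6e-05). For Cyp2c67, the log2 change of Ad-FAT10 against Ad-CTRL livers was -0.10 ± 0.18 under Pema (adjusted p = 0.684) and -0.62 ± 0.18 under CMC (adjusted p = 0.0114). The Cyp2c67 call for Ad-FAT10 under CMC was lost under scaling by library totals only (log2 change -0.33, adjusted p = 0.103).

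Cyp2c40 was at 2.51, 4.08, 1.10 and 4.10 CPM in Ad-FAT10 Pema livers, 3.07, 1.80, 1.34 and 3.30 CPM in Ad-FAT10 CMC livers, 2.96, 2.88, 13.4 and 5.51 CPM in Ad-CTRL Pema livers and 7.39, 5.73, 21.9 and 13.2 CPM in Ad-CTRL CMC livers. Cyp2c69 was at 1.00, 1.49, 0.475 and 2.21 CPM in Ad-FAT10 Pema livers, 0.826, 0.459, 0.686 and 1.99 CPM in Ad-FAT10 CMC livers, 0.882, 1.23, 3.49 and 1.63 CPM in Ad-CTRL Pema livers and 2.64, 2.59, 11.3 and 5.71 CPM in Ad-CTRL CMC livers. In both female-biased genes replicate 3 was the highest of the Ad-CTRL CMC and of the Ad-CTRL Pema livers, and the Ad-FAT10 CMC livers lay below all Ad-CTRL CMC livers. For Cyp2c40, the log2 change of Ad-FAT10 against Ad-CTRL livers was -1.08 ± 0.51 under Pema (adjusted p = 0.1) and -2.35 ± 0.52 under CMC (adjusted p = 0.00165). For Cyp2c69, the log2 change of Ad-FAT10 against Ad-CTRL livers was -0.49 ± 0.57 under Pema (adjusted p = 0.515) and -2.47 ± 0.56 under CMC (adjusted p = 0.00186). With pemafibrate in Ad-CTRL livers the log2 change was -0.96 ± 0.49 (adjusted p = 0.151) for Cyp2c40, or -1.66 (adjusted p = 0.0163) without Ad-CTRL Pema replicate 3, and -1.62 ± 0.54 (adjusted p = 0.0273) for Cyp2c69. The Cyp2c69 call with pemafibrate in Ad-CTRL livers was lost without any 1 of Ad-CTRL Pema replicates 1, 2 or 4 or Ad-CTRL CMC replicates 3 or 4 (adjusted p 0.052 to 0.172). Without Ad-CTRL CMC replicate 3 the Cyp2c69 change was -1.01 (adjusted p = 0.172). Cyp2c55 stood higher with FAT10 under Pema, at 1.07 ± 0.32 (adjusted p = 0.0118), and lower with pemafibrate in Ad-CTRL livers, at -1.25 ± 0.32 (adjusted p = 0.00594). Cyp2c38, at 11.9 to 48.4 CPM, and Cyp2c39, at 0.475 to 3.50 CPM, were called in none of the 4 comparisons.

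The Cyp2d genes on chromosome 15, a subfamily of drug and steroid hydroxylases, fell with FAT10. Of 7 tested, 0 rose and 6 fell with FAT10 under Pema, and 0 rose and 5 fell under CMC. With pemafibrate 0 rose and 6 fell in Ad-FAT10 livers, and 0 rose and 4 fell in Ad-CTRL livers. Of all genes tested, 20.5% were called lower with FAT10 under Pema and 20.2% under CMC. With pemafibrate the share called lower was 12.5% in Ad-FAT10 livers and 14.4% in Ad-CTRL livers. Cyp2d26 was at 493, 388, 431 and 433 CPM in Ad-FAT10 Pema livers, 475, 448, 455 and 374 CPM in Ad-FAT10 CMC livers, 723, 998, 1029 and 905 CPM in Ad-CTRL Pema livers and 900.3, 824, 806 and 1037 CPM in Ad-CTRL CMC livers. Its livers separated by adenovirus alone, with Pema and CMC livers overlapping under both. The Cyp2d26 log2 change with pemafibrate was -0.01 ± 0.13 in Ad-FAT10 livers (adjusted p = 0.98) and 0.04 ± 0.13 in Ad-CTRL livers (adjusted p = 0.877). For Cyp2d26, the log2 change of Ad-FAT10 against Ad-CTRL livers was -1.07 ± 0.13 under Pema (adjusted p = 8.97e-06) and -1.03 ± 0.13 under CMC (adjusted p = 1.01e-05). With library totals the Cyp2d26 change under Pema was -0.70 (adjusted p = 4.58e-05). Cyp2d40 was at 37.8, 22.4, 16.3 and 25.0 CPM in Ad-FAT10 Pema livers, 84.1, 63.5, 51.7 and 53.2 CPM in Ad-FAT10 CMC livers, 75.9, 71.9, 75.4 and 92.1 CPM in Ad-CTRL Pema livers and 177, 113, 135 and 151 CPM in Ad-CTRL CMC livers. Cyp2d40 separated by both, with no overlap in any comparison. The Cyp2d40 log2 change with pemafibrate was -1.32 ± 0.21 in Ad-FAT10 livers (adjusted p = 0.000147) and -0.87 ± 0.20 in Ad-CTRL livers (adjusted p = 0.00321). For Cyp2d40, the log2 change of Ad-FAT10 against Ad-CTRL livers was -1.64 ± 0.21 under Pema (adjusted p = 1.63e-05) and -1.19 ± 0.21 under CMC (adjusted p = 0.00021).

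Cyp2d9 was at 777, 622, 456 and 666 CPM in Ad-FAT10 Pema livers, 1035, 967, 913 and 775 CPM in Ad-FAT10 CMC livers, 906, 1318, 950.5 and 1060.0 CPM in Ad-CTRL Pema livers and 1437, 1432, 1179 and 1592 CPM in Ad-CTRL CMC livers. In this male-biased testosterone hydroxylase, Ad-FAT10 livers lay below Ad-CTRL livers of the same treatment without overlap. The Cyp2d9 log2 change with pemafibrate was -0.55 ± 0.16 in Ad-FAT10 livers (adjusted p = 0.0156) and -0.41 ± 0.16 in Ad-CTRL livers (adjusted p = 0.0562). For Cyp2d9, the log2 change of Ad-FAT10 against Ad-CTRL livers was -0.75 ± 0.16 under Pema (adjusted p = 0.00118) and -0.61 ± 0.16 under CMC (adjusted p = 0.00505). The Cyp2d9 call for Ad-FAT10 under CMC was lost under scaling by library totals only (log2 change -0.33, adjusted p = 0.0576). That scaling gave Cyp2d9 a change of -0.39 (adjusted p = 0.024) under Pema. The Cyp2d9 change with pemafibrate in Ad-CTRL livers lay just outside the threshold. It passed with DESeq2 (adjusted p = 0.025), RLE factors (0.0418), library totals (0.00948), no filter on low counts (0.0394) and the 8 libraries alone (0.0302). It also passed without any 1 of Ad-FAT10 Pema replicates 1 or 3, Ad-FAT10 CMC replicate 2, Ad-CTRL Pema replicate 2 or Ad-CTRL CMC replicate 3 (adjusted p 0.02 to 0.0433). Cyp2d10 was lower in all 4 comparisons, with log2 changes from -0.89 (FAT10 under CMC) to -0.63 (pemafibrate in Ad-FAT10 livers), and so was Cyp2d22, from -0.74 (pemafibrate in Ad-CTRL livers) to -0.57 (FAT10 under Pema). The Cyp2d22 call for Ad-FAT10 under Pema was lost under scaling by library totals only (log2 change -0.21, adjusted p = 0.146). That scaling also gave Cyp2d22 under CMC -0.40 (adjusted p = 0.00864) and Cyp2d10 under Pema -0.41 (adjusted p = 0.00977). Cyp2d11 was near the detection limit with 0.0386, 0.0763, 0.0593 and 0.0325 CPM in Ad-FAT10 Pema livers, 0.413, 0.306, 0.397 and 0.206 CPM in Ad-FAT10 CMC livers, 0.259, 0.321, 0.1496 and 0.264 CPM in Ad-CTRL Pema livers and 0.469, 0.508, 0.185 and 0.411 CPM in Ad-CTRL CMC livers. Ad-FAT10 Pema livers were the lowest, below the level that a count of 0 allows. It was called lower with pemafibrate in Ad-FAT10 livers (adjusted p = 0.000482) and with FAT10 under Pema (adjusted p = 0.0023). Cyp2d12, at 0 to 0.926 CPM, was called lower with pemafibrate in Ad-FAT10 (adjusted p = 0.00321) and in Ad-CTRL livers (adjusted p = 0.00586).

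Cyp2e1 and Cyp2f2, zoned to opposite ends of the lobule, were both lower with FAT10. Cyp2e1 was at 2678, 2579, 1429 and 3138 CPM in Ad-FAT10 Pema livers, 3974, 3424, 2976 and 2353 CPM in Ad-FAT10 CMC livers, 4701, 6628, 6185 and 5852 CPM in Ad-CTRL Pema livers and 6544, 6684, 6365 and 6665 CPM in Ad-CTRL CMC livers. Ad-FAT10 livers lay below all Ad-CTRL livers of the same treatment, and Ad-FAT10 Pema replicate 3 was the lowest of all 16. The Cyp2e1 log2 change with pemafibrate was -0.37 ± 0.20 in Ad-FAT10 livers (adjusted p = 0.195) and -0.17 ± 0.20 in Ad-CTRL livers (adjusted p = 0.582). For Cyp2e1, the log2 change of Ad-FAT10 against Ad-CTRL livers was -1.25 ± 0.20 under Pema (adjusted p = 0.000127) and -1.04 ± 0.20 under CMC (adjusted p = 0.000549). Cyp2f2 was at 516, 276, 311 and 276 CPM in Ad-FAT10 Pema livers, 579, 510.5, 430.2 and 366 CPM in Ad-FAT10 CMC livers, 502, 701, 781 and 715 CPM in Ad-CTRL Pema livers and 818, 759, 703 and 812 CPM in Ad-CTRL CMC livers. For Cyp2f2, Ad-FAT10 Pema replicate 1 stood above the rest of its group and reached the lowest Ad-CTRL Pema liver. The Cyp2f2 log2 change with pemafibrate was -0.45 ± 0.19 in Ad-FAT10 livers (adjusted p = 0.0965) and -0.20 ± 0.19 in Ad-CTRL livers (adjusted p = 0.487). For Cyp2f2, the log2 change of Ad-FAT10 against Ad-CTRL livers was -0.97 ± 0.19 under Pema (adjusted p = 0.000699) and -0.71 ± 0.19 under CMC (adjusted p = 0.00629). With library totals the Cyp2f2 change was -0.60 (adjusted p = 0.00634) under Pema and -0.43 (adjusted p = 0.0434) under CMC. The Cyp2f2 change with pemafibrate in Ad-FAT10 livers was -0.71 (adjusted p = 0.0029) without Ad-FAT10 Pema replicate 1 and -0.55 (adjusted p = 0.0486) without Ad-FAT10 CMC replicate 4.

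Cyp2j5, an arachidonic acid epoxygenase of liver and kidney, was the only abundant member to rise with pemafibrate under both adenoviruses. Cyp2j5 was at 523, 485, 405 and 493 CPM in Ad-FAT10 Pema livers, 422, 354, 379.6 and 372 CPM in Ad-FAT10 CMC livers, 640.2, 754, 789.8 and 678 CPM in Ad-CTRL Pema livers and 489, 465, 491 and 477 CPM in Ad-CTRL CMC livers. Ad-CTRL Pema livers were the highest and Ad-FAT10 CMC livers the lowest, and Pema and CMC livers did not overlap in the Ad-CTRL groups. The Cyp2j5 log2 change with pemafibrate was 0.32 ± 0.10 in Ad-FAT10 livers (adjusted p = 0.0262) and 0.57 ± 0.10 in Ad-CTRL livers (adjusted p = 0.00028). For Cyp2j5, the log2 change of Ad-FAT10 against Ad-CTRL livers was -0.59 ± 0.10 under Pema (adjusted p = 0.000215) and -0.33 ± 0.10 under CMC (adjusted p = 0.0135). The Cyp2j5 call with pemafibrate in Ad-FAT10 livers was lost without any 1 of Ad-FAT10 Pema replicates 1, 2 or 4 or Ad-FAT10 CMC replicates 2, 3 or 4 (adjusted p 0.0552 to 0.0705), and under no filter on low counts (log2 change 0.33, adjusted p = 0.0671). The Cyp2j5 call for Ad-FAT10 under CMC was lost under scaling by library totals only (log2 change -0.04, adjusted p = 0.735) and under no filter on low counts (log2 change -0.32, adjusted p = 0.0543). Library totals gave Cyp2j5 under Pema -0.22 (adjusted p = 0.0428). The summed Cyp2j level was 557 ± 67.2 CPM in Ad-FAT10 Pema livers, 466 ± 28.4 CPM in Ad-FAT10 CMC livers, 809 ± 77.4 CPM in Ad-CTRL Pema livers and 565 ± 17.9 CPM in Ad-CTRL CMC livers (SD, n = 4 each). Its Ad-FAT10 to Ad-CTRL ratio under CMC had a log2 value of -0.28, or 0.02 with library totals, so its direction depends on the scaling. The other 2 tested members, Cyp2j6 at 49.1 to 94.1 CPM and Cyp2j9 at 4.22 to 12.7 CPM, were called in none of the comparisons.

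Of the single-gene subfamilies, Cyp2u1, a fatty acid hydroxylase, fell with pemafibrate. Cyp2u1 had 37.8, 12.5, 11.6 and 10.9 CPM in Ad-FAT10 Pema livers, 30.3, 37.1, 34.9 and 30.6 CPM in Ad-FAT10 CMC livers, 11.8, 12.7, 10.3 and 12.8 CPM in Ad-CTRL Pema livers and 41.7, 32.2, 24.7 and 37.0 CPM in Ad-CTRL CMC livers. Pema livers lay at 10.3 to 12.8 CPM except Ad-FAT10 Pema replicate 1, which stood within the CMC range. The Cyp2u1 log2 change with pemafibrate was -0.88 ± 0.29 in Ad-FAT10 livers (adjusted p = 0.0349) and -1.51 ± 0.31 in Ad-CTRL livers (adjusted p = 0.00097). The Cyp2u1 call with pemafibrate in Ad-FAT10 livers was lost without any 1 of Ad-FAT10 Pema replicates 2, 3 or 4 or Ad-FAT10 CMC replicates 1, 2 or 3 (adjusted p 0.0515 to 0.113), and under a fit of only the 8 libraries compared (log2 change -0.86, adjusted p = 0.115). Without Ad-FAT10 Pema replicate 1 the Cyp2u1 change in Ad-FAT10 livers was -1.51 (adjusted p = 7.91e-07). For FAT10 it was not called, and was 0.79 (adjusted p = 0.0485) under Pema without Ad-FAT10 Pema replicate 4 and 0.95 (adjusted p = 0.0109) with library totals. Cyp2r1 had 9.77, 13.0, 7.51 and 10.2 CPM in Ad-FAT10 Pema livers, 13.2, 12.0, 12.5 and 12.8 CPM in Ad-FAT10 CMC livers, 16.9, 11.5, 10.9 and 11.8 CPM in Ad-CTRL Pema livers and 16.9, 17.3, 15.3 and 14.3 CPM in Ad-CTRL CMC livers. This vitamin D hydroxylase overlapped between groups in 3 of the 4 comparisons and was called in none, with log2 changes of -0.34 to -0.32. Leaving out a library made it a call with pemafibrate in Ad-FAT10 livers (without Ad-FAT10 Pema replicate 2, adjusted p = 0.0332) and in Ad-CTRL livers (without Ad-CTRL Pema replicate 1, adjusted p = 0.0157), and with FAT10 under Pema (without Ad-FAT10 Pema replicate 2, adjusted p = 0.0185) and under CMC (without Ad-FAT10 Pema replicate 3 or Ad-CTRL Pema replicate 1, adjusted p = 0.0454 and 0.0422). Cyp2s1 ran from 0.148 to 1.30 CPM, overlapped in all comparisons and was not called. Cyp2t4 was not tested, with a mean of 0.118 CPM in Ad-FAT10 Pema livers.

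The Cyp3a genes on chromosome 5, the main steroid and drug oxidases, were dominated by Cyp3a11, a target of the pregnane X receptor. Cyp3a11 was at 3840.0, 2333, 2477 and 2881 CPM in Ad-FAT10 Pema livers, 2513, 2381, 2797 and 2927 CPM in Ad-FAT10 CMC livers, 1774, 1703, 1263 and 1552 CPM in Ad-CTRL Pema livers and 2515, 3557, 2068 and 1863 CPM in Ad-CTRL CMC livers. Ad-CTRL Pema livers were the lowest group and did not overlap with the Ad-CTRL CMC or the Ad-FAT10 Pema livers. The Cyp3a11 log2 change with pemafibrate was 0.12 ± 0.19 in Ad-FAT10 livers (adjusted p = 0.715) and -0.67 ± 0.19 in Ad-CTRL livers (adjusted p = 0.0129). For Cyp3a11, the log2 change of Ad-FAT10 against Ad-CTRL livers was 0.87 ± 0.19 under Pema (adjusted p = 0.00162) and 0.09 ± 0.19 under CMC (adjusted p = 0.74). The Cyp3a11 call with pemafibrate in Ad-CTRL livers was lost without any 1 of Ad-CTRL Pema replicate 3 or Ad-CTRL CMC replicate 2 (adjusted p 0.0517 to 0.0658). Cyp3a59 was at 43.7, 32.3, 25.3 and 46.7 CPM in Ad-FAT10 Pema livers, 68.2, 80.4, 68.1 and 74.3 CPM in Ad-FAT10 CMC livers, 18.3, 12.7, 13.6 and 19.6 CPM in Ad-CTRL Pema livers and 41.2, 59.3, 46.4 and 32.0 CPM in Ad-CTRL CMC livers. The 4 groups of Cyp3a59 were each apart from their 2 comparison groups, Ad-FAT10 CMC highest and Ad-CTRL Pema lowest. The Cyp3a59 log2 change with pemafibrate was -0.98 ± 0.19 in Ad-FAT10 livers (adjusted p = 0.000984) and -1.48 ± 0.20 in Ad-CTRL livers (adjusted p = 1.84e-05). For Cyp3a59, the log2 change of Ad-FAT10 against Ad-CTRL livers was 1.21 ± 0.20 under Pema (adjusted p = 0.000143) and 0.70 ± 0.19 under CMC (adjusted p = 0.0069). Its neighbour Cyp3a25, 97.49% identical in coding sequence, was lower with pemafibrate in Ad-CTRL livers at a log2 change of -0.52 ± 0.17 (adjusted p = 0.0231) and was not called with FAT10. The Cyp3a25 call with pemafibrate in Ad-CTRL livers was lost without any 1 of Ad-CTRL Pema replicates 2 or 3 or Ad-CTRL CMC replicate 2 (adjusted p 0.0669 to 0.111). Without Ad-CTRL CMC replicate 2 the Cyp3a25 change was -0.34 (adjusted p = 0.111). Cyp3a13 was lower with pemafibrate in Ad-FAT10 livers, at a log2 change of -0.45 ± 0.13 (adjusted p = 0.0139), and with FAT10 under Pema, at -0.45 ± 0.13 (adjusted p = 0.00932). The Cyp3a13 call with pemafibrate in Ad-FAT10 livers was lost without any 1 of Ad-FAT10 Pema replicate 2 or Ad-FAT10 CMC replicates 1 or 2 (adjusted p 0.0501 to 0.0749), and under a fit of only the 8 libraries compared (log2 change -0.42, adjusted p = 0.0554). The Cyp3a13 call for Ad-FAT10 under Pema was lost under scaling by library totals only (log2 change -0.08, adjusted p = 0.541).

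**Figure D4:**
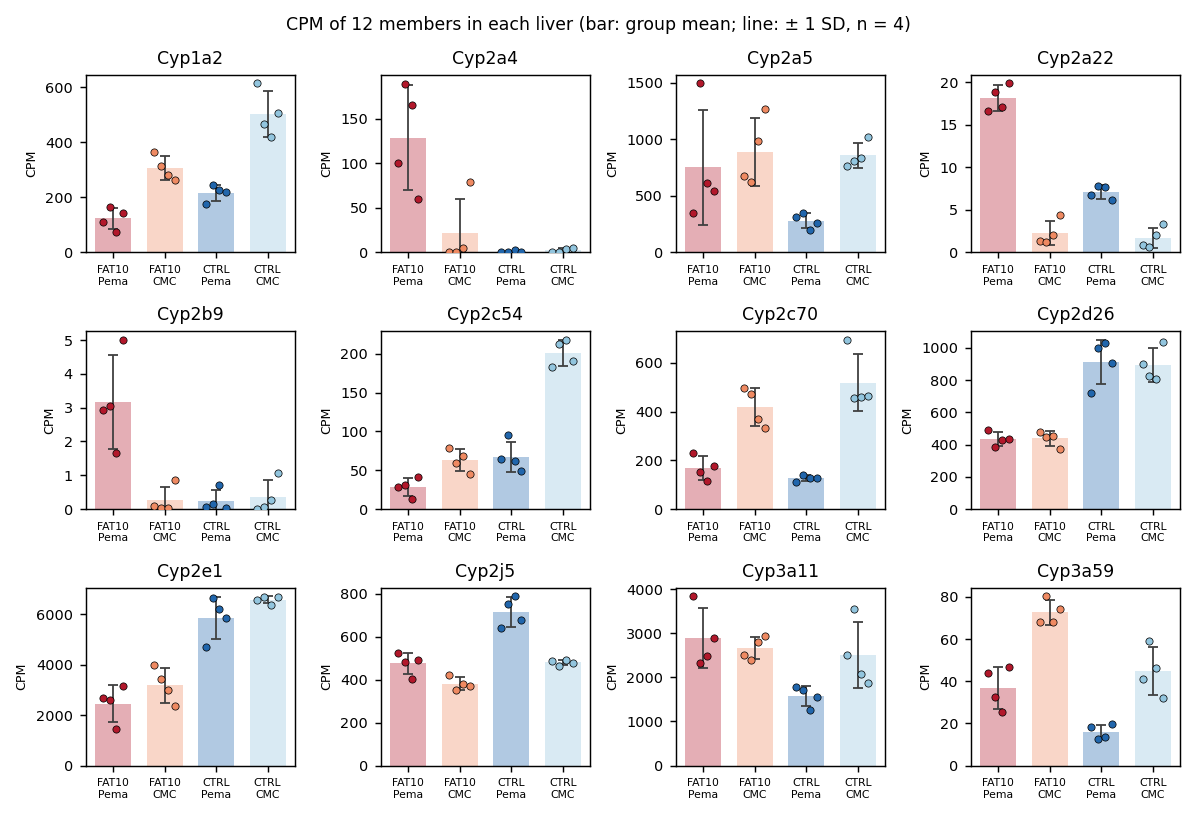
CPM (linear axes from 0) of 12 members in the 4 groups, 1 point per liver, with bars for mean ± SD. Cyp2a4, Cyp2a22 and Cyp2b9 stand highest in Ad-FAT10 Pema livers, Cyp1a2 and Cyp2c54 step down with both agents, Cyp2d26 and Cyp2e1 separate by adenovirus, and Cyp2j5 is highest in Ad-CTRL Pema livers.

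Summed over all their members, the other subfamilies were as follows, given without a test. The Cyp1a sum was 125 ± 40.0 CPM in Ad-FAT10 Pema livers, 308 ± 43.3 CPM in Ad-FAT10 CMC livers, 218 ± 28.9 CPM in Ad-CTRL Pema livers and 503 ± 83.05 CPM in Ad-CTRL CMC livers (SD, n = 4 each). The Cyp2b sum was 5.25 ± 1.53 CPM in Ad-FAT10 Pema livers, 2.39 ± 2.49 CPM in Ad-FAT10 CMC livers, 0.717 ± 0.508 CPM in Ad-CTRL Pema livers and 1.90 ± 0.496 CPM in Ad-CTRL CMC livers (SD, n = 4 each). Ad-FAT10 CMC replicate 4 set much of it: the log2 ratio of the Cyp2b sums with pemafibrate in Ad-FAT10 livers was 1.13, and 2.16 without that library, and with FAT10 under CMC it was 0.34, and -0.69 without it, so its direction rests on 1 liver. These 2 sums stand at opposite ends, with Ad-FAT10 Pema livers lowest for Cyp1a and highest for Cyp2b. The Cyp2d sum was 1467 ± 233 CPM in Ad-FAT10 Pema livers, 2005 ± 197 CPM in Ad-FAT10 CMC livers, 2670.0 ± 355 CPM in Ad-CTRL Pema livers and 3482 ± 436 CPM in Ad-CTRL CMC livers (SD, n = 4 each). The Cyp3a sum was 3478 ± 727 CPM in Ad-FAT10 Pema livers, 3452 ± 188 CPM in Ad-FAT10 CMC livers, 2213 ± 246 CPM in Ad-CTRL Pema livers and 3399 ± 922 CPM in Ad-CTRL CMC livers (SD, n = 4 each). Its log2 ratio was 0.01 with pemafibrate in Ad-FAT10 livers and 0.02 with FAT10 under CMC, and both changed sign when 1 library was left out. For Cyp2d the sums ordered by adenovirus first, while for Cyp3a the Ad-CTRL Pema livers stood below the other 3 groups. The Cyp2c sum fell to a ratio of 0.594 with pemafibrate in Ad-FAT10 livers and of 0.496 in Ad-CTRL livers, with both means given above.

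**Figure D5:**
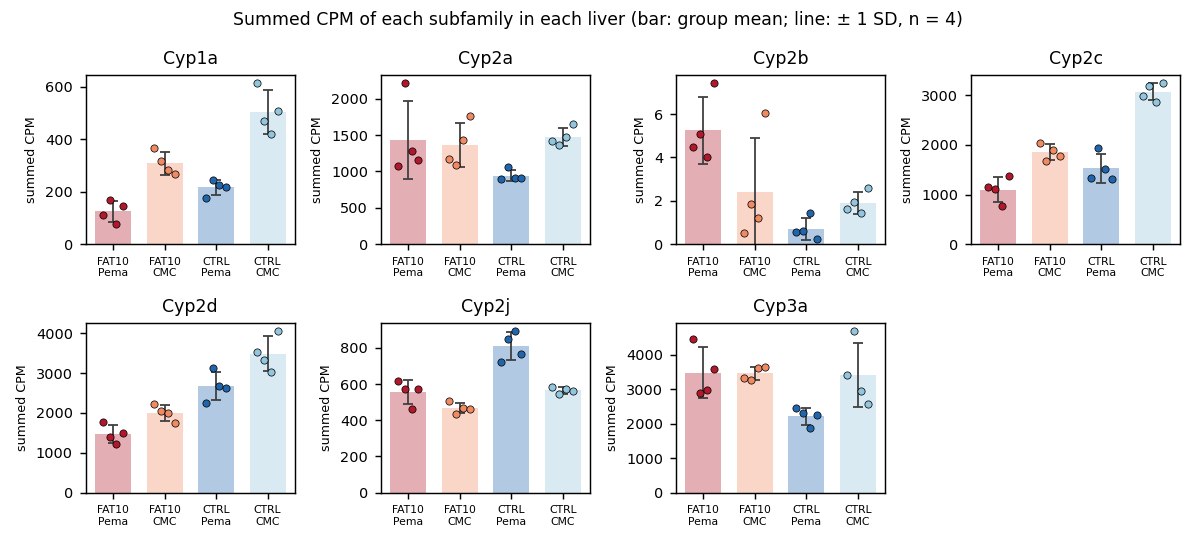
Summed CPM (linear axes from 0) of the 7 subfamilies with several members, 1 point per liver in 4 groups, with bars for mean ± SD (n = 4). Cyp2c is highest in Ad-CTRL CMC livers at 3077 ± 176 CPM, Cyp2b in Ad-FAT10 Pema livers at 5.25 ± 1.53 CPM and Cyp2j in Ad-CTRL Pema livers at 809 ± 77.4 CPM.

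Genes that act with the P450 enzymes or control them were counted in the same way, beside the shares of all genes tested that were called. Those shares were 12.9% higher and 12.5% lower with pemafibrate in Ad-FAT10 livers, 16.2% and 14.4% in Ad-CTRL livers, 21.2% and 20.5% with FAT10 under Pema, 22.5% and 20.2% under CMC. Of 14 tested of the 15 receptors and regulators listed, 2 rose and 5 fell with pemafibrate in Ad-FAT10 livers, and 4 rose and 3 fell in Ad-CTRL livers. With FAT10, 0 rose and 8 fell under Pema, and 3 rose and 5 fell under CMC. With pemafibrate, 14.3% of receptors and regulators were called higher and 35.7% lower in Ad-FAT10 livers, and 28.6% were called higher and 21.4% lower in Ad-CTRL livers. With FAT10, 0% of receptors and regulators were called higher and 57.1% lower under Pema, and 21.4% were called higher and 35.7% lower under CMC. The higher shares with pemafibrate in Ad-FAT10 livers and with FAT10 under CMC were near the background. The median log2 change of the receptors was -0.25 with pemafibrate in Ad-FAT10 livers, -0.03 in Ad-CTRL livers, -0.35 with FAT10 under Pema and -0.23 under CMC, where all genes had -0.01, -0.01, -0.02 and -0.01 in the same order. Ahr, the receptor for the Cyp1 genes, fell with pemafibrate by 1.00 on the log2 scale in Ad-FAT10 livers (adjusted p = 0.000245) and had a log2 change of -1.41 in Ad-CTRL livers (adjusted p = 5.91e-06). Nr1i2 had log2 changes of 0.79 in Ad-FAT10 livers (adjusted p = 8.38e-07) and 0.85 in Ad-CTRL livers (adjusted p = 1.92e-07) with pemafibrate, and of -0.49 under Pema (adjusted p = 0.000115) and -0.42 under CMC (adjusted p = 0.000417) with FAT10. Nr1i3 was lower with FAT10, at -0.95 under Pema (adjusted p = 4.96e-05) and -1.73 under CMC (adjusted p = 2.47e-07). Cebpa, a hepatocyte transcription factor, was lower with FAT10 at -0.93 under Pema (adjusted p = 6.46e-05) and -0.78 under CMC (adjusted p = 0.000283). Whether any of these moved the P450 genes was not tested.

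Of the 5 electron donors, 1 rose and 1 fell with pemafibrate in Ad-FAT10 livers and 2 rose and 0 fell in Ad-CTRL livers, and with FAT10 0 rose and 4 fell under Pema and 0 rose and 3 fell under CMC. With 5 genes, 1 call is 20% of the list. The medians of the donors were 0.15 with pemafibrate in Ad-FAT10 livers, -0.02 in Ad-CTRL livers, -0.41 with FAT10 under Pema and -0.38 under CMC. Por, the reductase that all these enzymes need, rose with pemafibrate by 0.88 in Ad-FAT10 (adjusted p = 9.97e-05) and 0.90 in Ad-CTRL livers (adjusted p = 5.06e-05) on the log2 scale, opposite in sign to most members. Cyb5a, cytochrome b5, had log2 changes of -0.94 under Pema (adjusted p = 1.67e-05) and -1.05 under CMC (adjusted p = 5.03e-06) with FAT10. Of 11 genes of heme synthesis and breakdown, 4 rose and 1 fell with pemafibrate in Ad-FAT10 livers and 3 rose and 1 fell in Ad-CTRL livers, and with FAT10 1 rose and 4 fell under Pema and 1 rose and 6 fell under CMC. With pemafibrate, 36.4% of heme genes were called higher and 9.09% lower in Ad-FAT10 livers, and 27.3% were called higher and 9.09% lower in Ad-CTRL livers. With FAT10, 9.09% of heme genes were called higher and 36.4% lower under Pema, and 9.09% were called higher and 54.5% lower under CMC. Their medians were 0.04 with pemafibrate in Ad-FAT10 livers, 0.15 in Ad-CTRL livers, -0.18 with FAT10 under Pema and -0.24 under CMC. Alas1, which makes the first heme precursor, rose with pemafibrate by 0.83 in Ad-FAT10 (adjusted p = 0.00535) and 0.63 in Ad-CTRL livers (adjusted p = 0.0238). Hmox1, which breaks heme down, was the gene that rose with FAT10, by 0.89 under Pema (adjusted p = 0.00127) and 1.26 under CMC (adjusted p = 7.19e-05).

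Of 13 tested of 14 genes of growth hormone signalling and sex-biased transcription, 1 rose and 5 fell with pemafibrate in Ad-FAT10 livers and 2 rose and 5 fell in Ad-CTRL livers. With FAT10, 0 rose and 6 fell under Pema and 1 rose and 4 fell under CMC. With pemafibrate, 7.69% of these genes were called higher and 38.5% lower in Ad-FAT10 livers, and 15.4% were called higher and 38.5% lower in Ad-CTRL livers. With FAT10, 0% of these genes were called higher and 46.1% lower under Pema, and 7.69% were called higher and 30.8% lower under CMC. Medians in this list were -0.47 with pemafibrate in Ad-FAT10 livers, -0.45 in Ad-CTRL livers, -0.78 with FAT10 under Pema and -0.53 under CMC. Ghr, the growth hormone receptor, was lower in all 4 comparisons, from -0.97 with FAT10 under Pema (adjusted p = 0.000259) to -0.66 with pemafibrate in Ad-CTRL livers (adjusted p = 0.00621). Hsd3b5, a male-biased steroid enzyme, had log2 changes of -3.29 with pemafibrate in Ad-FAT10 livers (adjusted p = 0.000776) and -3.20 in Ad-CTRL livers (adjusted p = 0.000549). Of the female-biased members, Cyp2a4 and Cyp2b9 were called higher with FAT10 under Pema, where Cyp2c40 and Cyp2c69 were not called. Under CMC, Cyp2a4 was called higher and Cyp2c40 and Cyp2c69 lower, and Cyp2b9 was not called. These 4 genes were highest in the same liver of the Ad-FAT10 CMC group (replicate 4) and of the Ad-CTRL Pema group (replicate 3). Cyp2b13, Cyp3a41a and Cyp3a44 had at most 7 counts in a library.

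Genes of the 2 lobule zones and general hepatocyte genes were called lower more often than higher in all 4 comparisons. Of 12 pericentral genes, 1 rose and 6 fell with pemafibrate in Ad-FAT10 livers and 3 rose and 5 fell in Ad-CTRL livers, and with FAT10 0 rose and 10 fell under Pema and 0 rose and 9 fell under CMC. With pemafibrate, 8.33% of pericentral genes were called higher and 50% lower in Ad-FAT10 livers, and 25% were called higher and 41.7% lower in Ad-CTRL livers. With FAT10, 0% of pericentral genes were called higher and 83.3% lower under Pema, and 0% were called higher and 75% lower under CMC. Their medians were -0.53 with pemafibrate in Ad-FAT10 livers, -0.26 in Ad-CTRL livers, -0.82 with FAT10 under Pema and -0.59 under CMC. The summed pericentral level was 3350.0 ± 387 CPM in Ad-FAT10 Pema livers, 2945 ± 384 CPM in Ad-FAT10 CMC livers, 5728 ± 340.5 CPM in Ad-CTRL Pema livers and 4900.0 ± 230.3 CPM in Ad-CTRL CMC livers (SD, n = 4 each), higher in Pema than in CMC livers under either adenovirus. The summed level of the P450 members ran the other way between Pema and CMC livers, at 11000.0 ± 1711 CPM in Ad-FAT10 Pema livers, 13150.0 ± 779.5 CPM in Ad-FAT10 CMC livers, 14920.0 ± 1566 CPM in Ad-CTRL Pema livers and 19900.0 ± 1090.0 CPM in Ad-CTRL CMC livers (SD, n = 4 each). By gene the lists did not part in this way. More pericentral genes fell than rose with pemafibrate, and their medians were negative, like those of the members. Of 12 periportal genes, 0 rose and 7 fell with pemafibrate in Ad-FAT10 livers and 1 rose and 8 fell in Ad-CTRL livers, and with FAT10 3 rose and 6 fell under Pema and 3 rose and 7 fell under CMC. The periportal sum was 5482 ± 704 CPM in Ad-FAT10 Pema livers, 8186 ± 1008 CPM in Ad-FAT10 CMC livers, 7414 ± 566 CPM in Ad-CTRL Pema livers and 11200.0 ± 491 CPM in Ad-CTRL CMC livers (SD, n = 4 each), lower in Pema than in CMC livers, and the periportal medians were -0.69 with pemafibrate in Ad-FAT10 livers, -0.63 in Ad-CTRL livers, -0.38 with FAT10 under Pema and -0.48 under CMC. With pemafibrate, 0% of periportal genes were called higher and 58.3% lower in Ad-FAT10 livers, and 8.33% were called higher and 66.7% lower in Ad-CTRL livers. With FAT10, 25% of periportal genes were called higher and 50% lower under Pema, and 25% were called higher and 58.3% lower under CMC. These higher calls with FAT10 were near the background. Of 15 hepatocyte markers, 1 rose and 8 fell with pemafibrate in Ad-FAT10 livers and 1 rose and 9 fell in Ad-CTRL livers. With FAT10, 0 of them rose and 11 fell under Pema, and 0 rose and 10 fell under CMC. With pemafibrate, 6.67% of hepatocyte markers were called higher and 53.3% lower in Ad-FAT10 livers, and 6.67% were called higher and 60% lower in Ad-CTRL livers. With FAT10, 0% of hepatocyte markers were called higher and 73.3% lower under Pema, and 0% were called higher and 66.7% lower under CMC. Their medians were -0.37 with pemafibrate in Ad-FAT10 livers, -0.38 in Ad-CTRL livers, -0.54 with FAT10 under Pema and -0.48 under CMC. Their summed level was 55400.0 to 79180.0 CPM in Ad-FAT10 Pema livers, 74450.0 to 96260.0 CPM in Ad-FAT10 CMC livers, 92580.0 to 119700.0 CPM in Ad-CTRL Pema livers and 109600.0 to 141400.0 CPM in Ad-CTRL CMC livers. That sum ran from highest to lowest in the same order of groups as the summed Cyp2d level, Ad-CTRL CMC first and Ad-FAT10 Pema last, and its part in the P450 differences was not tested. Of 18 acute phase genes, 0 rose and 14 fell with pemafibrate in Ad-FAT10 livers and 1 rose and 9 fell in Ad-CTRL livers, and with FAT10 4 rose and 3 fell under Pema and 11 rose and 1 fell under CMC. With pemafibrate, 0% of acute phase genes were called higher and 77.8% lower in Ad-FAT10 livers, and 5.56% were called higher and 50% lower in Ad-CTRL livers. With FAT10, 22.2% of acute phase genes were called higher and 16.7% lower under Pema, and 61.1% were called higher and 5.56% lower under CMC, the calls under Pema being near the background. Acute phase medians were -1.15 with pemafibrate in Ad-FAT10 livers, -0.82 in Ad-CTRL livers, 0.34 with FAT10 under Pema and 0.60 under CMC.

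Markers of other cell types were called mostly with FAT10, where 21.2% of all genes tested were called higher and 20.5% lower under Pema, and 22.5% and 20.2% under CMC. With pemafibrate these shares were 12.9% and 12.5% in Ad-FAT10 livers, and 16.2% and 14.4% in Ad-CTRL livers. Of 10 macrophage and Kupffer cell markers, 5 rose and 4 fell with FAT10 under each treatment and 0 changed with pemafibrate, and Clec4f, Vsig4 and Timd4, which mark resident Kupffer cells, were lower by log2 changes of -2.89 to -4.40. Their summed level was 439 to 806 CPM in Ad-FAT10 Pema livers, 621 to 836 CPM in Ad-FAT10 CMC livers, 339 to 591 CPM in Ad-CTRL Pema livers and 470.3 to 613 CPM in Ad-CTRL CMC livers. Macrophage and Kupffer cell markers had median log2 changes of 0.61 with FAT10 under Pema and 0.67 under CMC. Clec4f, Vsig4 and Timd4 moved against these medians, and the 5 markers that rose are not named here. Of 6 tested of 9 neutrophil markers, 5 rose under Pema and 6 under CMC with FAT10, and with pemafibrate 6 fell in Ad-FAT10 and 0 in Ad-CTRL livers. Their sum was 17.7 to 24.8 CPM in Ad-FAT10 Pema livers, 40.2 to 120.3 CPM in Ad-FAT10 CMC livers, 7.38 to 10.6 CPM in Ad-CTRL Pema livers and 9.33 to 19.9 CPM in Ad-CTRL CMC livers. Neutrophil markers had median log2 changes of 1.45 with FAT10 under Pema and 2.55 under CMC. Of 10 T and NK cell markers, 8 rose with FAT10 under each treatment and 1 fell with pemafibrate under each adenovirus, with a sum of 36.0 to 80.0 CPM in Ad-FAT10 Pema livers, 46.0 to 62.6 CPM in Ad-FAT10 CMC livers, 15.7 to 24.5 CPM in Ad-CTRL Pema livers and 17.2 to 36.1 CPM in Ad-CTRL CMC livers. T and NK cell markers had median log2 changes of 1.41 with FAT10 under Pema and 1.13 under CMC. Their 1 fall with pemafibrate is 10% of the list, which is not above the background. Of 5 tested of 6 B and plasma cell markers, 3 fell with FAT10 under Pema and 4 under CMC, and their sum was 3.44 to 5.43 CPM in Ad-FAT10 Pema livers, 3.17 to 4.13 CPM in Ad-FAT10 CMC livers, 4.43 to 8.25 CPM in Ad-CTRL Pema livers and 5.36 to 9.10 CPM in Ad-CTRL CMC livers. B and plasma cell markers had median log2 changes of -0.86 with FAT10 under Pema and -1.19 under CMC. Of 7 endothelial markers, 4 fell with FAT10 under each treatment, with a sum of 104 to 167 CPM in Ad-FAT10 Pema livers, 102 to 142 CPM in Ad-FAT10 CMC livers, 154 to 249.5 CPM in Ad-CTRL Pema livers and 152 to 215 CPM in Ad-CTRL CMC livers. Endothelial markers had median log2 changes of -0.68 with FAT10 under Pema and -0.78 under CMC. Of 7 stellate and fibroblast markers, 3 rose and 2 fell with FAT10 under Pema, 0 rose and 3 fell under CMC, and 1 rose with pemafibrate in Ad-FAT10 livers, with a sum of 162 to 256 CPM in Ad-FAT10 Pema livers, 154 to 219 CPM in Ad-FAT10 CMC livers, 222 to 318 CPM in Ad-CTRL Pema livers and 234 to 263 CPM in Ad-CTRL CMC livers. Stellate and fibroblast markers had median log2 changes of -0.05 with FAT10 under Pema and -0.16 under CMC. Their 1 rise with pemafibrate is 14.3% of the list, near the background. Of 5 tested of 6 cholangiocyte markers, 2 rose with FAT10 under CMC and none was called in another comparison, with a sum of 26.0 to 64.0 CPM in Ad-FAT10 Pema livers, 41.9 to 157 CPM in Ad-FAT10 CMC livers, 27.4 to 36.9 CPM in Ad-CTRL Pema livers and 36.4 to 44.2 CPM in Ad-CTRL CMC livers. Cholangiocyte markers had median log2 changes of 0.33 with FAT10 under Pema and -0.22 under CMC. Of 5 tested of 6 erythroid markers, 1, Alas2, fell in all 4 comparisons, with a sum of 116 to 217 CPM in Ad-FAT10 Pema livers, 119.9 to 212 CPM in Ad-FAT10 CMC livers, 169 to 264 CPM in Ad-CTRL Pema livers and 230.2 to 297 CPM in Ad-CTRL CMC livers. Erythroid markers had median log2 changes of -0.05 with FAT10 under Pema and -0.37 under CMC. Their 1 call is 20% of the tested list, near the background with FAT10. The part of these cells in the P450 differences was not tested.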

How the data were processed

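Liver RNA of 16 mice, 4 per group, was analysed from the deposited raw read counts per gene. The authors made these counts from poly(A) libraries built with dUTP strand marking and read on a DNBSEQ instrument, per the labels' protocols. As tools, the submitters' processing notes list STAR (2.7.6) and DESeq2 (1.36.0 and 2.11.40.6), with GRCm39 as the build. Neither the counting program nor its annotation or strand option is given in the sources used here. Since whether the counting used strand is not known, overlapping and antisense genes cannot be told apart from the members.

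Gene symbols and exon lengths were taken from GENCODE M21 on GRCm38, which matched 52083 of 55416 gene IDs (93.99%). The 23 pseudogene entries of the 3 families were left out. Promoter sequences are RefSeq's on GRCm38.p6. The members and all companion lists were chosen with earlier results of these data known. Values in every library were given for the member with the highest level per kb in each subfamily, for up to 6 called members with the largest rise and up to 6 with the largest fall in each comparison (at a mean of at least 1 CPM), and for the members that share most transcript windows; this last criterion replaced likeness of protein sequence.

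Counts were tested with edgeR 4.0.16 in R 4.3.3 (filterByExpr, TMM, quasi-likelihood F test, 1 fit of 16 libraries 12 residual degrees of freedom, a common coefficient of biological variation of 0.151), in 5 comparisons per gene, with Benjamini-Hochberg adjustment over 14770 genes. The SE is the log2 change divided by the root of F. Sums and list medians have no test. The same fit was also run on counts simulated with the means and dispersions of these genes, and the outcome is not given here. Alternatives were DESeq2 1.42.0, RLE factors, library totals, no filter, the replicate number as a block, the 8 libraries of a comparison alone, and leaving out each library. Total counts limit the precision of low genes, and floors cover counting error only. Deviations of same-numbered libraries correlated at -0.172 to 0.172 over 24 pairs, and those of differently numbered libraries at -0.159 to 0.195 over 72 pairs. No pairing of mice by number was seen, though this check cannot exclude one.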

Additional observations from a re-analysis of the deposited data

Results flagged for a closer look

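In 148 groups of 4 livers, over 30 members and subfamily sums, 9 held a liver whose gap to the nearest other liver was a large part of the group's whole range by Dixon's criterion. Chance alone gives about 1 in 20 such groups, and the count of flags was near that rate. The groups are not independent, since the sums hold members that were also examined alone.

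Ad-FAT10 CMC replicate 4 stood out for Cyp2a4, at 79.7 CPM against 0.826 to 5.27 CPM in the other three, and for Cyp2b9, at 0.858 CPM against 0.0361 to 0.0917 CPM. Both genes were high in the Ad-FAT10 Pema livers, so this vehicle liver lay nearer to the Pema livers of its adenovirus than its group did for these genes. Ad-FAT10 Pema replicate 1 stood out for Cyp2f2, at 516 CPM against 276 to 311 CPM, and for Cyp2u1, at 37.8 CPM against 10.9 to 12.5 CPM.

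Ad-CTRL Pema livers held 4 such values. Replicate 3 had Cyp2a4 at 2.34 CPM against 0.308 to 0.534 CPM in the others, replicate 2 had Cyp2g1 at 1.71 CPM against 0.617 to 0.748 CPM and the Cyp2a sum at 1056 CPM against 894 to 905.3 CPM, and replicate 1 had Cyp2r1 at 16.9 CPM against 10.9 to 11.8 CPM. In Ad-CTRL CMC livers, replicate 1 had Cyp2c70 at 695 CPM against 457 to 462 CPM. No library was out of line for all of these genes at once, and the cause of these values was not tested.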

How the results depend on the processing

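Of the 89 calls of members, 66 were kept in every alternative, 23 were lost in at least 1 and 1 of these reversed: Cyp2a12 with FAT10 under Pema was 0.083 with library totals. The counts of members called stayed within 1.5 times, except these. Higher calls with pemafibrate in Ad-FAT10 livers were 4, and 2 to 3 when 1 library was left out. Higher calls with FAT10 under CMC were 2, and 1 with the replicate block, 1 with the 8 libraries alone and 1 to 2 when 1 library was left out. Higher calls in the interaction were 0, and 1 with DESeq2, 3 without the filter on low counts and 0 to 1 when 1 library was left out. Since no pairing of mice by replicate number was seen, results with the block are given only in this paragraph. Cyp2a4 with pemafibrate in Ad-FAT10 livers was 4.29 with the block and 2.56 without it. With the block, Cyp2a4 with FAT10 under CMC (log2 change 2.44, adjusted p = 0.0782) was not called. Nor was Cyp2a12 with FAT10 under Pema (-0.285, adjusted p = 0.0506). Cyp2d9 with pemafibrate in Ad-CTRL livers was called with the block (-0.41, adjusted p = 0.0473).

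Ad-FAT10 CMC replicate 4 moved the log2 ratio of the Cyp2b sums most: when 1 library was left out it was 0.80 to 2.16 with pemafibrate in Ad-FAT10 livers (1.13 with all) and -0.69 to 0.67 with FAT10 under CMC (0.34 with all). Library totals moved log2 ratios of summed subfamily levels for Ad-FAT10 against Ad-CTRL. Under Pema they were 0.98 for Cyp2a, -0.11 for Cyp2c, -0.50 for Cyp2d, -0.18 for Cyp2j and 1.01 for Cyp3a. Under CMC they were -0.42 for Cyp1a, -0.44 for Cyp2c, -0.51 for Cyp2d and 0.32 for Cyp3a, and 0.19 for Cyp2a and 0.015 for Cyp2j, whose signs turned. By the construction of that scaling all genes move together in these comparisons. Whether reads per cell or the makeup of the tissue lie behind the difference in scale was not tested. Cyp2d11 and Cyp2d12, at no more than 11 and 18 counts in any library, are limited by depth.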
